A study of Mus musculus with 18 samples.

Results

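The 10 genes described here encode adhesion receptors, simple keratins, claudins and a splicing factor of epithelial cells, and were followed across heart, kidney and tail fibroblasts of the mouse, in culture and after transplantation under the kidney capsule. They are *Cdh1*, *Cdh16*, *Epcam*, *Krt7*, *Krt8*, *Krt18*, *Krt19*, *Cldn4*, *Cldn7* and *Esrp1*. They were chosen by symbol, and each symbol matched 1 Ensembl identifier among the 38924 genes of the count table.

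The donors were male Rosa mT/mG mice aged 10 weeks, on a C57BL/6 background, a reporter strain whose cells carry a membrane-bound red fluorescent protein, tdTomato. After 10 days in culture, 400000 to 500000 heart (HF), kidney (KF) or tail (TF) fibroblasts on gelatin foam were placed under the kidney capsule of C57bl6/j mice aged 10 to 11 weeks. At 3 days, live CD45-negative, tdTomato-positive cells were sorted from the kidneys and gave the transplanted groups (HFs, KFs, TFs). The remaining cells, replated at 50000 per well and grown for 3 more days, gave the cultured controls (HFc, KFc, TFc). Each of the 6 groups had 3 libraries, 18 in all. The study describes the libraries of a condition as biological replicates, with a separate tube of cells for each kidney that received a transplant. The red reporter marks every donor cell whatever its type. For the isolation of these cells the methods refer back to a protocol that includes a sort for CD90-positive, CD45-negative, CD31-negative fibroblasts, and do not say whether that sort was done before transplantation or replating.

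Epithelial cells are held together by cadherins and tight junctions and are braced by keratin filaments, in which a type I keratin always pairs with a type II keratin. In simple epithelia, such as kidney tubules and mesothelium, the pairs are built from *Krt8* and *Krt7* (type II) with *Krt18* and *Krt19* (type I). Fibroblasts use N-cadherin, cadherin-11 and vimentin in their place, and transcription factors of the Snail and Zeb families repress epithelial adhesion genes in mesenchymal cells.

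Library totals ranged from 17927838 to 32245168 counts. In the library labelled KFs replicate 3, the X-inactivation transcript *Xist* had 37208 counts and 4 Y-linked genes had 18 counts together. The other 17 libraries had at most 10 counts of *Xist* and at least 3583 of the Y-linked genes, as the male label requires. The same library had the lowest summed level of 7 leukocyte genes, 13.3 CPM (counts divided by the library total, times 1000000), against 97.1 and 124 CPM in KFs replicates 1 and 2. The 8 fibroblast genes, led by *Col1a1*, *Col3a1* and *Col1a2*, summed to 20530 CPM in KFs replicate 3 and to 68990 and 91070 CPM in KFs replicates 2 and 1. These counts go against the label, so this library may not hold the labelled male donor cells, and its column, unlike the others, carries no replicate code. It was kept in the labelled group, and the results of the 10 genes that rest on it are also given without it.

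In culture the summed level of the 10 genes was highest in the kidney fibroblast libraries. Every transplanted heart and tail library had a higher sum than the cultured libraries of the same organ, though HFs replicate 1 only slightly. The part of RNA from other cells in the transplanted libraries was not tested. Their summed level was 43.9 to 52.6 CPM in KFc, 5.74 to 6.80 CPM in TFc and 3.02 to 4.06 CPM in HFc. After transplantation it was 4.72, 29.9 and 20.8 CPM in HFs replicates 1, 2 and 3, and 21.6, 7.82 and 12.9 CPM in TFs. In KFs it was 32.7 and 25.4 CPM in replicates 1 and 2, below every KFc library, and 245 CPM in replicate 3, above every KFc library. These are bulk samples, in which fewer cells of a type and less RNA per cell cannot be told apart.

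**Figure D1:**
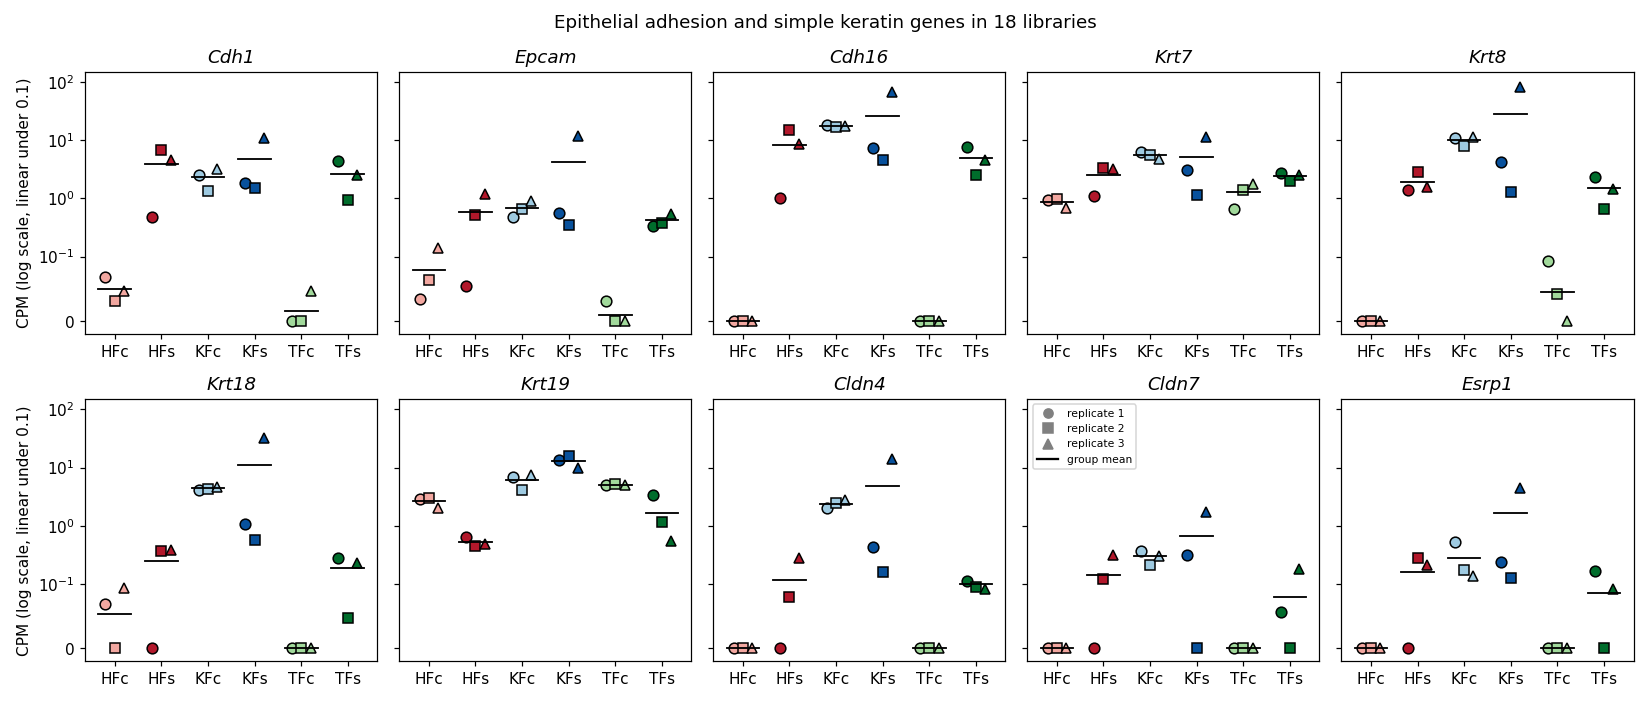
Level of each gene in CPM (log scale, linear under 0.1) in the 18 libraries, by group; the marker's shape gives the replicate and the line the group mean. *Cdh16* was at 0 in all 6 HFc and TFc libraries, and KFs replicate 3 (blue triangle) lay above every other library for all genes except *Krt19*.

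Of the 10 genes, 8 passed the filter on low counts and were tested with edgeR's quasi-likelihood test on all 18 libraries. *Cldn7* and *Esrp1* did not pass, so the 8 are not the whole list, and a gene that passed through 1 high group was bound to differ. A gene was called in a comparison of transplanted with cultured cells at an adjusted p under 0.05 and a log2 fold change past 1 in either direction, and between organs or between responses at an adjusted p under 0.05. The share of all 16577 genes tested that were called the same way is given beside each count of members, as the background.

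In HFs relative to HFc, 4 of the 8 rose, against 18.3% of all genes, and 1 fell, against 9.33%. In TFs relative to TFc, 4 rose, against 11.0% of all genes, and 1 fell, against 5.53%. In KFs relative to KFc, 1 rose, against 14.7% of all genes, and 0 fell, against 7.99%. The kidney counts turned without KFs replicate 3, when 1 of the 8 rose, against 12.9% of the 16923 genes then tested, and 4 fell, against 10.3%. Leaving out that library also lowered the estimate of spread that all groups share. The counts for HFs then became 7 higher, against 19.7%, and 1 lower, against 9.28%, and those for TFs 6 higher, against 12%, and 1 lower, against 6.21%.

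**Figure D2:**
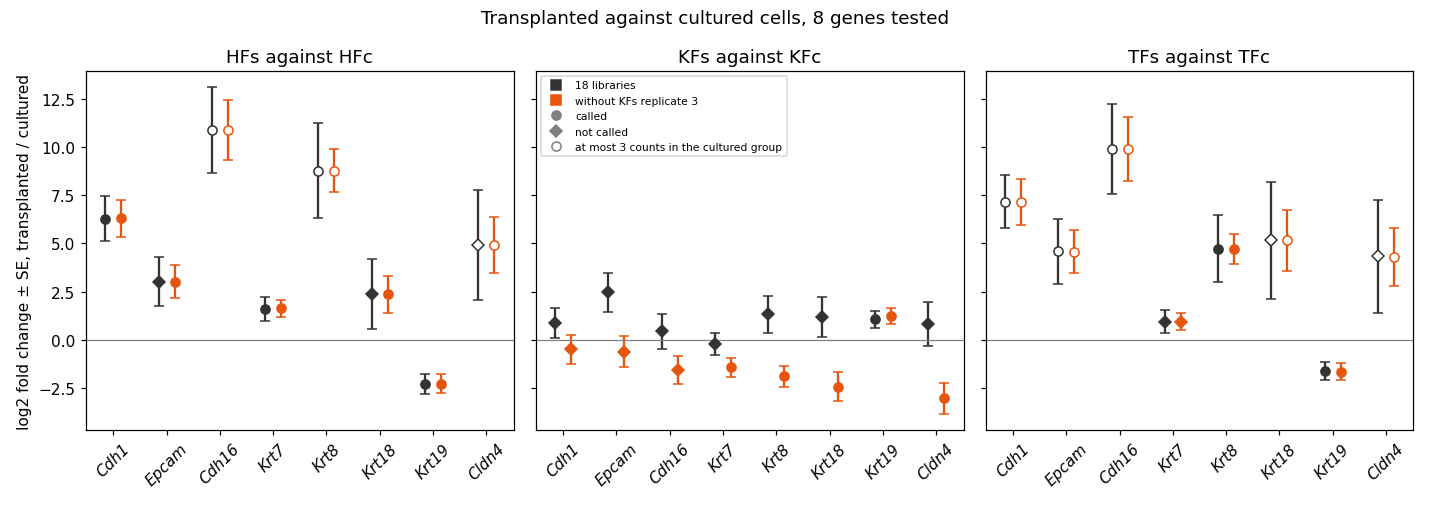
Log2 fold change of transplanted against cultured cells for the 8 genes tested, with its standard error (SE), from the fit to 18 libraries (black) and from the fit without KFs replicate 3 (orange); circles passed the test, diamonds did not, and open symbols mark genes with at most 3 counts over the cultured group, whose fitted value depends on a prior count. In the kidney panel, 7 of the 8 values lie below 0 without KFs replicate 3 and only *Krt19* stays above it, while the heart and tail panels keep every direction.

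Among the cultured cells, 7 of the 8 were higher in KFc than in TFc, against 17.8% of all genes, and 0 were lower, against 18.5%. In KFc relative to HFc, 6 were higher, against 14.0%. These became, without KFs replicate 3, 7 higher than in TFc, against 22.5%, and 8 higher than in HFc, against 19.3%. Between HFc and TFc 0 of the 8 were called, against 41.9% of all genes in either direction. There, 0 had an unadjusted p under 0.05, and DESeq2 called 0. *Cdh16* and *Cldn4* were at 0 in both groups, and *Cdh1*, *Epcam*, *Krt8* and *Krt18* had at most 6 counts over either group. With so few counts the test could hardly call these genes, and only *Krt7* and *Krt19* were well measured in both groups.

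*Cdh1*, which encodes E-cadherin, the calcium-dependent adhesion molecule of most epithelia (ENSMUSG00000000303; GRCm38, chromosome 8, 106603351 to 106670246, plus strand), was almost absent from cultured heart and tail fibroblasts. It had 2, 1 and 1 counts in the HFc libraries and 0, 0 and 1 in TFc, but 67, 38 and 96 counts in KFc, or 2.51, 1.34 and 3.22 CPM. After transplantation it reached 0.488, 6.72 and 4.59 CPM in HFs and 4.35, 0.954 and 2.56 CPM in TFs, so that all 6 libraries lay above all 6 of the cultured heart and tail cells. The log2 fold change was 6.27 ± 1.16 (SE; edgeR adjusted p = 0.000294) in HFs relative to HFc. Against the single count of TFc, the 154 counts of TFs gave a ratio of 198, with a 95% exact counting interval of 34.9 to 7855 (edgeR adjusted p = 0.000814).

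In kidney cells *Cdh1* had 1.86 and 1.54 CPM in KFs replicates 1 and 2, within the range of KFc, and 11.0 CPM in replicate 3. The change from KFc did not pass the test, with a log2 fold change of 0.88 ± 0.79 (edgeR adjusted p = 0.373) and, without replicate 3, of -0.49 ± 0.74 (edgeR adjusted p = 0.607). The response of the kidney cells differed from that of the heart cells by -5.38 ± 1.42 on the log2 scale (edgeR adjusted p = 0.0113) and from that of the tail cells by -6.28 ± 1.68 (edgeR adjusted p = 0.0252). The latter fitted value depends on the prior count, since TFc had 1 count over the group.

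*Cdh16*, the kidney-specific cadherin of tubular epithelium (ENSMUSG00000031881; chromosome 8, 104601911 to 104624396, minus strand), had the highest CPM of the 10 in KFc. It was at 0 counts in every HFc and TFc library and between 481 and 515 counts in every KFc library, at 18.3, 17 and 17.3 CPM. Over the group, KFc was at least 454-fold higher than TFc and at least 477-fold higher than HFc, computed against a floor of 3 counts over the group (edgeR adjusted p = 0.00124 and 0.00158).

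After transplantation *Cdh16* appeared in all 6 heart and tail libraries. It had 1.03, 15.2 and 8.50 CPM in HFs and 7.81, 2.53 and 4.66 CPM in TFs, which made HFs at least 244-fold higher than HFc and TFs at least 126-fold higher than TFc on the same floor (edgeR adjusted p = 0.00145 and 0.00585). The heart libraries spanned a wide range, with replicate 1 lowest, and the difference between HFs and TFs did not pass the test (log2 0.96 ± 0.96, edgeR adjusted p = 0.532). In KFs it had 7.41 and 4.51 CPM in replicates 1 and 2, both below the 3 KFc libraries, and 67.7 CPM in replicate 3. Neither fit called a change from KFc, with log2 0.44 ± 0.91 (edgeR adjusted p = 0.713) and, without replicate 3, -1.57 ± 0.72 (edgeR adjusted p = 0.0896).

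*Epcam* encodes the epithelial cell adhesion molecule (ENSMUSG00000045394; chromosome 17, 87635979 to 87651129, plus strand) and was the least abundant of the adhesion receptors in KFc. It had 0.486, 0.670 and 0.905 CPM in KFc, at most 0.139 CPM in HFc and 1 count in all 3 TFc libraries together. In TFs it had 0.335, 0.382 and 0.549 CPM, above every TFc library. The 26 counts against 1 gave a ratio of 33.4 with a 95% exact counting interval of 5.48 to 1368 (edgeR adjusted p = 0.0410). This call was lost on leaving out any 1 of the TFs or TFc libraries, with adjusted p from 0.0586 to 0.113.

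In HFs *Epcam* had 0.0543, 0.520 and 1.21 CPM, and replicate 1 lay within the range of HFc. The log2 fold change of 3.01 ± 1.28 did not pass the test (edgeR adjusted p = 0.0558), but did so without KFs replicate 3 (edgeR adjusted p = 0.00622). In KFs it had 0.555, 0.352 and 12 CPM. The change from KFc was 2.46 ± 1.03 on the log2 scale (edgeR adjusted p = 0.0594) and -0.62 ± 0.80 without replicate 3 (edgeR adjusted p = 0.546).

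The keratin pair *Krt8* and *Krt18* lies on chromosome 15, *Krt8* on the minus strand (ENSMUSG00000049382; 101996698 to 102004482) and *Krt18* on the plus strand (ENSMUSG00000023043; 102028180 to 102032027), head to head with 23697 bases between the 2 annotated starts. *Krt8* was at 0 in every HFc library and had 3, 1 and 0 counts in TFc. In KFc it had 10.8, 8.04 and 11.4 CPM, at least 276-fold above HFc over the group (edgeR adjusted p = 0.00178) and higher than in TFc by 7.56 ± 1.57 on the log2 scale (edgeR adjusted p = 0.00210). Of the 1884 windows of 75 bases in *Krt8* transcripts, 23.5% also occur in other genes, *Krt8-ps* and *Gm36026*. Neither of those was found by symbol among the genes counted. The sharing leaves the counts of *Krt8* less certain than those of *Krt18*, which had no such window.

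*Krt8* rose in transplanted heart and tail cells. It had 1.41, 2.80 and 1.59 CPM in HFs, at least 53.6-fold above HFc (edgeR adjusted p = 0.00811), and 2.34, 0.668 and 1.46 CPM in TFs, higher than in TFc by 4.72 ± 1.73 on the log2 scale (edgeR adjusted p = 0.0445). The call in TFs was lost without TFs replicate 1 or 3 or any TFc library, with adjusted p from 0.0772 to 0.115. All 6 libraries lay above the cultured heart and tail cells and below the 3 KFc libraries. *Krt18*, its partner, was scarce in the same libraries, with 0, 0.360 and 0.380 CPM in HFs and 0.279, 0.0477 and 0.229 CPM in TFs. Its changes were 2.36 ± 1.82 in HFs (edgeR adjusted p = 0.287) and, in TFs, at least 4.71-fold over the floor (edgeR adjusted p = 0.195). Both passed the test without KFs replicate 3 (edgeR adjusted p = 0.0477 and 0.0162).

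*Krt18* separated the cultured cells as clearly as *Krt8* did, with 4.19, 4.30 and 4.59 CPM in KFc, 2, 0 and 2 counts in HFc and 0 counts in each TFc library. The log2 difference from HFc was 6.24 ± 1.56 (edgeR adjusted p = 0.00845), and the level was at least 114-fold that of TFc (edgeR adjusted p = 0.00317). After transplantation the kidney libraries went apart. KFs replicates 1 and 2 had 1.07 and 0.576 CPM of *Krt18* and 4.20 and 1.31 CPM of *Krt8*, all below the lowest KFc library. KFs replicate 3 had 32.0 CPM of *Krt18* and 80.8 CPM of *Krt8*, above the highest.

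With all 3 libraries the changes from KFc did not pass the test, at 1.33 ± 0.95 for *Krt8* (edgeR adjusted p = 0.264) and 1.18 ± 1.04 for *Krt18* (edgeR adjusted p = 0.371). Without replicate 3, *Krt8* fell by 1.89 (SE 0.54, edgeR adjusted p = 0.00978) and *Krt18* fell by 2.42 (SE 0.74, edgeR adjusted p = 0.0143) on the log2 scale.

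*Krt7*, the other type II keratin (ENSMUSG00000023039; chromosome 15, 101411043 to 101430313, plus strand), was measurable in every library. It had 0.934, 0.983 and 0.697 CPM in HFc, 0.651, 1.41 and 1.76 CPM in TFc and 6.28, 5.64 and 4.69 CPM in KFc, and so was higher in KFc than in HFc by 2.56 ± 0.62 (edgeR adjusted p = 0.00559) and than in TFc by 2.2 ± 0.61 (edgeR adjusted p = 0.0105) on the log2 scale. Without TFc replicate 1 the latter was 1.87 (edgeR adjusted p = 0.0522). In HFs it had 1.09, 3.36 and 3.25 CPM, higher than in HFc by 1.61 ± 0.62 (edgeR adjusted p = 0.0359). This call was lost on leaving out HFs replicate 2 or 3 or any HFc library, with adjusted p from 0.0696 to 0.101. In TFs it had 2.79, 2.0 and 2.56 CPM, and the change of 0.95 ± 0.61 did not pass the test (edgeR adjusted p = 0.230).

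In KFs *Krt7* had 3.05, 1.15 and 11.5 CPM, with replicates 1 and 2 below and replicate 3 above all 3 KFc libraries. Its log2 change from KFc was -0.22 ± 0.57 (edgeR adjusted p = 0.776), and without replicate 3 it fell by 1.42 (SE 0.48, edgeR adjusted p = 0.0224).

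*Krt19*, the smallest of the type I keratins, which lacks most of the tail domain (ENSMUSG00000020911; chromosome 11, 100140810 to 100148665, minus strand), behaved unlike the other members. It was present in all cultured cells, at 2.84, 2.98 and 2.05 CPM in HFc, 4.96, 5.27 and 5.00 CPM in TFc and 6.96, 4.09 and 7.41 CPM in KFc. The difference between KFc and TFc did not pass the test (log2 0.34 ± 0.42, edgeR adjusted p = 0.565), nor did that between KFc and HFc (log2 1.13 ± 0.43, edgeR adjusted p = 0.0617). The latter passed it without KFs replicate 3 (log2 1.18, edgeR adjusted p = 0.0270) and without KFc replicate 2 (log2 1.36, edgeR adjusted p = 0.0487). It made up 67.7% to 86.5% of all reads of the 10 genes in the HFc and TFc libraries, and 9.3% to 14.1% in KFc.

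*Krt19* fell in transplanted heart and tail cells and rose in transplanted kidney cells. In HFs it had 0.651, 0.440 and 0.484 CPM, and fell from HFc by 2.28 (SE 0.50, edgeR adjusted p = 0.00124) on the log2 scale. In TFs it had 3.35, 1.15 and 0.549 CPM, and fell from TFc by 1.61 (SE 0.45, edgeR adjusted p = 0.0110). Without TFs replicate 2 the fall was 1.40 and did not pass the test (edgeR adjusted p = 0.0529). In KFs it had 13.6, 15.6 and 9.92 CPM, all 3 above the highest KFc library.

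The rise of *Krt19* from KFc was 1.06 ± 0.42 (edgeR adjusted p = 0.0485) and, without KFs replicate 3, 1.23 ± 0.41 (edgeR adjusted p = 0.0193). The call was lost without KFs replicate 1 (log2 0.99, edgeR adjusted p = 0.0990), without KFs replicate 2 (0.83, 0.151) and without KFc replicate 1, 2 or 3 (1.15, 0.83 and 1.21, with adjusted p = 0.0800, 0.172 and 0.0652). The response of the kidney cells differed from that of the heart cells by 3.33 ± 0.66 (edgeR adjusted p = 0.00176) and from that of the tail cells by 2.67 ± 0.62 (edgeR adjusted p = 0.0119) on the log2 scale. *Krt19* was also the one gene of the 8 for which KFs replicate 3 lay below KFs replicates 1 and 2.

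Claudins are the strand-forming proteins of tight junctions. *Cldn4* (ENSMUSG00000047501; chromosome 5, 134945119 to 134946934, minus strand) was at 0 in all 6 HFc and TFc libraries and had 54, 69 and 81 counts in KFc, or 2.02, 2.43 and 2.72 CPM. KFc was at least 65.6-fold higher than HFc and at least 62.4-fold higher than TFc (edgeR adjusted p = 0.0105 and 0.00827). After transplantation it stayed scarce in the heart and tail cells, with 0, 2 and 8 counts in HFs and 2 counts in each TFs library, at least 3.78-fold and 2.57-fold over the floor (edgeR adjusted p = 0.160 and 0.272). Both passed the test without KFs replicate 3 (edgeR adjusted p = 0.0109 and 0.0335). In KFs it had 0.436 and 0.160 CPM in replicates 1 and 2, both below the lowest KFc library, and 13.9 CPM in replicate 3. The log2 change from KFc was 0.83 ± 1.13 (edgeR adjusted p = 0.570), and without replicate 3 it fell by 3.02 (SE 0.81, edgeR adjusted p = 0.00842).

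*Cldn7* (ENSMUSG00000018569; chromosome 11, 69964779 to 69967885, plus strand) and *Esrp1*, which encodes a splicing regulator of epithelial transcript forms (ENSMUSG00000040728; chromosome 4, 11331933 to 11386783, minus strand), were at 0 in all HFc and TFc libraries. *Cldn7* had 10, 6 and 9 counts in KFc, 0, 3 and 9 in HFs, 1, 0 and 4 in TFs and 8, 0 and 37 in KFs. *Esrp1* had 14, 5 and 4 counts in KFc, 0, 7 and 6 in HFs, 3, 0 and 2 in TFs and 6, 4 and 98 in KFs. Both showed KFs replicate 3 far above the rest, and HFs replicate 1 at 0, as for *Krt18* and *Cldn4*. At these counts no difference between the transplanted groups was detectable beyond the single library.

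Per kilobase of exon, the order in KFc was *Krt8* (5.15 ± 0.914 CPM per kb; SD, n = 3), *Cdh16* (4.61 ± 0.178), *Krt19* (3.32 ± 0.970), *Krt18* (3.03 ± 0.145), *Cldn4* (1.32 ± 0.193), *Krt7* (0.786 ± 0.113), *Cdh1* (0.515 ± 0.207), *Epcam* (0.313 ± 0.0957), *Cldn7* (0.152 ± 0.0418) and *Esrp1* (0.0441 ± 0.0339). Among neighbours in this order, *Krt8* and *Cdh16*, *Krt19* and *Krt18*, *Krt7* and *Cdh1*, and *Cdh1* and *Epcam* overlapped within 1 SD. In HFs and TFs *Cdh16* came first, at 2.17 ± 1.87 and 1.32 ± 0.701 CPM per kb. There *Krt8* was at 0.988 ± 0.386 and 0.762 ± 0.428, *Cdh1* at 0.860 ± 0.693 and 0.573 ± 0.372, *Krt19* at 0.283 ± 0.0601 and 0.906 ± 0.795, and *Krt18* at 0.172 ± 0.149 and 0.129 ± 0.0846. The SDs of *Cdh16*, *Krt8* and *Cdh1* overlapped in both groups, and those of *Krt8* and *Krt18* did not.

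The reads of the cadherins *Cdh1* and *Cdh16* were set against those of *Krt8*, *Krt18* and *Cldn4* in each library, a grouping chosen after the values were seen and therefore given with no test. The cadherins made up 54.9%, 55.3% and 52.3% of the reads of these 5 genes in KFc. They made up 81.6%, 81.1% and 80.2% in TFs, and 87.1% and 85.4% in HFs replicates 2 and 3. In HFs replicate 1, with 54 such reads, the share was 51.9% (95% Wilson interval 38.9 to 64.6%). KFs replicates 1 and 2 lay between, at 61.9% and 74.7%, and KFs replicate 3 was at 38.3% (36.9 to 39.7%), the lowest of the 12 libraries with at least 50 such reads. The HFc and TFc libraries had at most 4 such reads each.

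**Figure D3:**
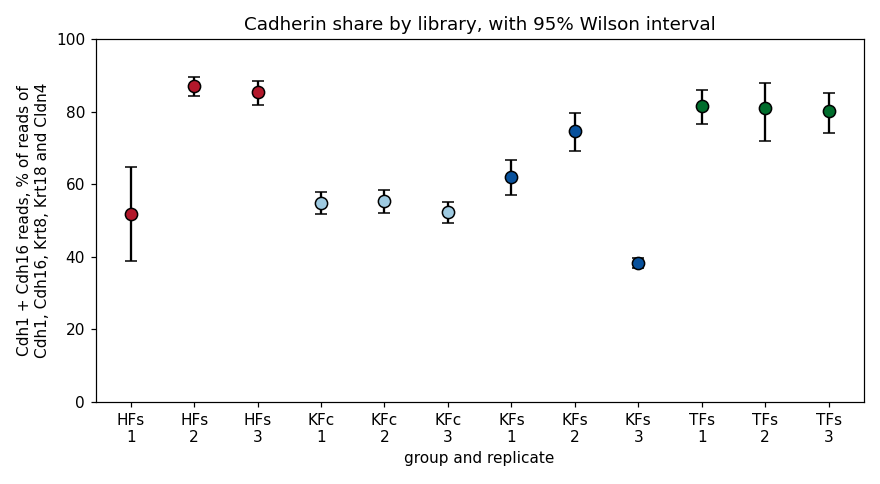
Reads of *Cdh1* and *Cdh16* as a percentage of the reads of *Cdh1*, *Cdh16*, *Krt8*, *Krt18* and *Cldn4* in each library with at least 50 such reads, with 95% Wilson intervals that cover counting error only. The 3 KFc libraries sit between 52.3% and 55.3%, the 3 TFs libraries between 80.2% and 81.6%, and KFs replicate 3 at 38.3%.

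Across the 18 libraries the 8 tested genes followed one another closely except for *Krt19*. The Pearson correlation of log2 CPM was 0.98 between *Krt18* and *Cldn4*, 0.97 between *Cdh1* and *Cdh16* and 0.96 between *Cdh16* and *Krt8*, and between -0.12 and 0.40 for *Krt19* with the other 7. The same pairs, without KFs replicate 3, had 0.97, 0.96 and 0.97, and *Krt19* lay between -0.22 and 0.33. These are descriptions over libraries that share their groups, with no test.

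The protein-coding genes outside the list whose log2 CPM followed the mean of the 8 most closely were *Pax8* (Pearson r 0.985 over 18 libraries), *Igsf5* (0.983), *Pklr* (0.968), *Celsr2* and *Spint2* (0.967 each), *Prom1* (0.962) and *Lsr* (0.961). *Pax8* encodes a transcription factor of the nephron lineage, *Spint2* an inhibitor of epithelial serine proteases and *Igsf5* and *Lsr* proteins of tight junctions. Without KFs replicate 3, *Pax8* (0.983) and *Igsf5* (0.979) remained the first 2, and *Frem2* (0.944) entered in place of *Lsr*. *Pax8* was at 16.8, 19 and 18.2 CPM in KFc, at 0.814, 3.60 and 1.52 CPM in HFs, at 1.84, 0.907 and 1.28 CPM in TFs and at 6.14, 3.55 and 126 CPM in KFs, against 1 count in the 6 HFc and TFc libraries.

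Between organs after transplantation, 5 of the 8 were higher in KFs than in TFs, against 15.3% of all genes, and 4 were higher in KFs than in HFs, against 19%. Most of these rested on KFs replicate 3. Without it, 2 were higher than in TFs, against 18.3%, and 1 higher than in HFs, against 20.7%. *Krt19* was called in every one of these fits, at 3.01 ± 0.46 over TFs (edgeR adjusted p = 0.000209) and 4.46 ± 0.51 over HFs (edgeR adjusted p = 1.61e-05), and at 3.24 ± 0.45 and 4.67 ± 0.49 without replicate 3 (edgeR adjusted p = 4.71e-05 and 3.96e-06). *Krt18* was higher than in TFs by 5.79 ± 1.40 (edgeR adjusted p = 0.00706) and, without replicate 3, by 2.23 ± 0.82 (edgeR adjusted p = 0.0486). *Krt8*, *Epcam* and *Cldn4* were called over TFs with all 3 libraries, at 4.17, 3.22 and 5.42 (edgeR adjusted p = 0.0122, 0.0362 and 0.0198), and not without replicate 3, at 0.99, 0.19 and 1.62 (edgeR adjusted p = 0.176, 0.885 and 0.194).

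Between HFs and TFs 0 of the 8 were called, against 23.1% of all genes called in either direction. *Krt19* alone had an unadjusted p under 0.05 there, with a log2 difference of -1.46 ± 0.52 (edgeR adjusted p = 0.0544, and 0.0414 without KFs replicate 3), and DESeq2 called 1 gene. Between the responses of heart and tail cells 0 were called, against 22.8% of all genes, 0 at an unadjusted p under 0.05 and 0 called by DESeq2. For *Cdh16* and *Cldn4*, at 0 in HFc and TFc, this difference could not be estimated. Its SE on the log2 scale was 4.65 for *Krt8*, 3.52 for *Krt18*, 2.13 for *Epcam* and 1.96 for *Cdh1*. The absence of calls therefore does not show that the 2 responses were alike. The kidney response differed from the tail response in 1 gene upward and 1 downward, against 4.99% and 6.07%, and from the heart response in 1 upward and 2 downward, against 15.5% and 10.7%. Each of these, without KFs replicate 3, became 1 upward, *Krt19*, against 9.72% (tail) and 17.2% (heart), and 7 downward, all the others, against 11.7% and 18%. Of the 7, all but *Krt7* had at most 6 counts over HFc or over TFc and more in KFc. Genes so near 0 could hardly fall in heart or tail cells, so the downward direction was largely set by the levels in culture. The comparisons of responses share their kidney libraries, and those with KFs share replicate 3.

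Genes of the loop and distal tubule were nearly absent from the cultured fibroblasts and present in the transplanted ones. *Umod*, *Cldn16*, *Calb1* and *Pvalb*, 4 of the 6 loop and distal tubule genes listed, were at 0 in all 9 cultured libraries. The list summed to at most 0.369 CPM in culture, 10.7 to 70.9 CPM in HFs, 20.7 to 67.2 CPM in TFs and 13.2 to 22.4 CPM in KFs. *Umod*, the urinary glycoprotein uromodulin of the thick ascending limb, had 3.47, 31.0 and 12.3 CPM in HFs, 23.9, 10.8 and 5.94 CPM in TFs and 10.1, 3.90 and 2.95 CPM in KFs. All 4 tested loop and distal genes rose in each of the 3 comparisons with culture, against 18.3% (HFs), 14.7% (KFs) and 11.0% (TFs) of all genes. They were nearly absent in culture and passed the filter through the transplanted groups, so they could hardly do other than rise.

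The 12 proximal tubule genes summed to 21.5 to 24.1 CPM in HFc and 110 to 1115 CPM in HFs, to 20.6 to 23.3 CPM in TFc and 149 to 343 CPM in TFs, and to 104 to 113 CPM in KFc and 63.1 to 127 CPM in KFs. They rose 12 of 12 in HFs and in TFs and 10 of 12 in KFs. In KFs, 8 of 12 rose without replicate 3. *Lrp2*, the endocytic receptor megalin, was at 92.9 to 99.5 CPM in KFc and made up most of the sum there, and *Kap*, the androgen-regulated protein of proximal tubules, was at 0 in all cultured libraries and reached 269 CPM in HFs replicate 2. The 9 collecting duct genes summed to at most 0.793 CPM in culture, 1.09, 16.2 and 23.6 CPM in HFs, 3.20 to 10.2 CPM in TFs and 1.75 to 4.16 CPM in KFs. Of the 7 tested, 5 rose in HFs, 3 in TFs and 1 in KFs, or 2 in KFs without replicate 3. The background of these and the proximal counts is 18.3% (HFs), 11.0% (TFs) and 14.7% (KFs) of all genes, or 12.9% in KFs without replicate 3. The 1 of 7 in KFs lies near its background. The collecting duct genes, and the proximal genes at 0 in culture, could likewise hardly fall. Among the 6 HFs and TFs libraries, those with the highest sums of the 10 members, HFs replicates 2 and 3 and TFs replicate 1, were also the 3 with the highest loop and distal sums, and HFs replicate 1 was lowest in both. The proximal sums were ordered otherwise, with HFs replicate 3 lowest at 110 CPM and HFs replicate 1 at 141 CPM. In the collecting duct sums HFs replicate 1 was again lowest, but TFs replicate 1 (3.96 CPM) lay below TFs replicate 3 (10.2 CPM). The part of tubule RNA in the rise of *Cdh1*, *Cdh16* and *Krt8* was not tested. KFs replicate 3, with 245 CPM of the members, had loop and distal, proximal and collecting duct sums within or below the range of KFs replicates 1 and 2 (18.9, 116 and 1.75 CPM).

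**Figure D4:**
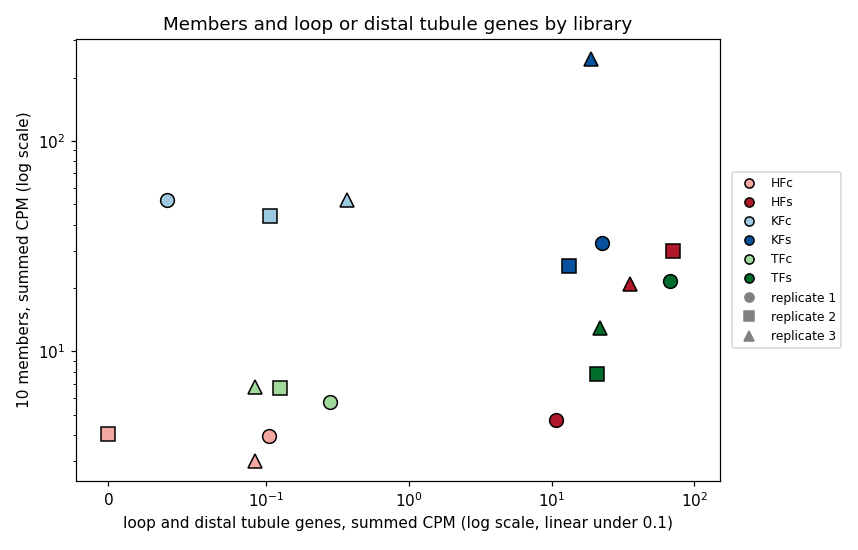
Summed CPM of the 10 members (log scale) against the summed CPM of 6 loop and distal tubule genes (log scale, linear under 0.1) in each library, coloured by group, with the marker's shape giving the replicate. The KFc libraries have 43.9 to 52.6 CPM of the members with at most 0.369 CPM of the tubule genes, while HFs replicates 2 and 3 and TFs replicate 1, with 20.8 to 29.9 CPM of the members, have 35.3 to 70.9 CPM of the tubule genes.

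For the other gene lists, the shares of all genes called in each comparison, given above, are the background of the counts too. Of 16 tested genes of epithelial junctions and polarity, 6 rose and 1 fell in HFs (median log2 1.39, against 0.05 over all genes), 4 rose and 1 fell in TFs (1.75, against 0.00), and 3 rose and 0 fell in KFs (1.53, against 0.09). Without KFs replicate 3, 0 rose and 5 fell in KFs, with a median of -1.0, and in TFs 8 rose and 2 fell. *Dsp*, the desmosomal linker desmoplakin, was at 88.4 to 91.7 CPM in TFc, where *Cdh1*, *Krt18* and *Cldn4* were at 0 or 1 count, and fell in TFs by 4.39 on the log2 scale (SE 1.06, edgeR adjusted p = 0.00422). It was at 215 CPM in KFs replicate 3 and at 5.75 and 3.39 CPM in KFs replicates 1 and 2. Of 11 tested epithelial transcription and splicing factors, 6 rose and 0 fell in HFs, 4 rose and 2 fell in TFs, and 2 rose and 2 fell in KFs, which became 0 and 5 without KFs replicate 3.

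Of the 10 mesenchymal transcription factors and cadherins, 1 rose and 1 fell in HFs, 0 rose and 3 fell in TFs and 0 rose and 1 fell in KFs, with medians of 0.32, -0.40 and -0.03 (0.17 in KFs without replicate 3). *Zeb2*, a repressor of E-cadherin, was at 262 to 263 CPM in HFc, 181 to 195 CPM in TFc and 273 to 294 CPM in KFc, and at 311 to 587 CPM in the 9 transplanted libraries, differences of 0.97, 0.76 and 0.41 on the log2 scale in HFs, TFs and KFs that stayed under the fold threshold. Of the 8 fibroblast genes, 6 rose and 1 fell in HFs, 5 rose in TFs and 6 rose in KFs, with medians of 2.68, 1.68 and 2.07 (2.44 in KFs without replicate 3).

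The 12 epidermal genes summed to 22.0 to 24.9 CPM in KFc and to 3.92, 3.58 and 57.1 CPM in KFs, with at most 11.4 CPM in every heart and tail library, and *Krt6a* and *Krt1* were at 0 in all 18 libraries. *Perp* and *Sfn*, which are not keratins, made up most of the sum in KFc and in KFs replicate 3. *Perp* had 17.2, 15.7 and 17.8 CPM and *Sfn* 5.42, 5.22 and 5.67 CPM in KFc, and they had 47.4 and 7.38 CPM in KFs replicate 3. Of the 4 tested, 1 rose and 1 fell in HFs and 0 were called in TFs and KFs. Without KFs replicate 3, 2 fell in KFs and 1 in TFs. The 7 mesothelial genes summed to 218 to 231 CPM in HFc and 5.21 to 13.6 CPM in HFs, where 1 rose and 5 fell. They summed to 28.8 to 30.2 CPM in KFc and 41.5 to 51.0 CPM in KFs (0 rose, 3 fell) and to at most 0.249 CPM in TFc and 1.34 CPM in TFs (2 rose, 0 fell). The kidney sums were mostly 1 gene, *Wt1*, at 21.5, 24.7 and 23.3 CPM in KFc and 49.6, 39.8 and 46.9 CPM in KFs. *Krt19* fell in both HFs and TFs. Of the urothelial genes only *Krt20*, a keratin of umbrella cells, was tested. It had 18.5, 18.4 and 13.7 CPM in KFc and 3.05, 2.37 and 7.01 CPM in KFs, where it fell by 2.12 on the log2 scale (SE 0.48, edgeR adjusted p = 0.00256), and by 2.65 without replicate 3 (SE 0.45, edgeR adjusted p = 0.000223). It was also called lower in TFs, where it was at 0, and *Upk2* and *Upk3a* were at 0 in all cultured libraries. Endothelial genes rose 5 of 6 in HFs, 3 in TFs and 3 in KFs, where 1 fell with replicate 3 and 0 without it. Leukocyte genes fell 6 of 7 in TFs and in KFs and 0 were called in HFs, and all 5 erythroid genes, at 0 in culture, rose in HFs and in TFs and 1 rose in KFs, or 5 without replicate 3. The erythroid genes passed the filter only through the transplanted groups and could not have fallen. The part of these cell types in the results was not tested.

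The RefSeq promoter table for GRCm38.p6 held 6 of the 10 members (*Cldn4*, *Cldn7*, *Epcam*, *Krt7*, *Krt8* and *Krt18*). The 250 bases upstream of each RefSeq start were searched on both strands for the E-box CAGGTG, the sequence that Snail and Zeb factors recognise, and for other motifs. The E-box was found in all 6 genes (for *Cldn7* at 1 of its 2 starts), against 17.2% of all 32851 promoters of the table, and the GC box GGGCGG in 4, against 32.7%. The AP-1 motif TGAGTCA was found in 1 gene, against 4.5%, and the motif TATAAA and the Grainyhead sequence AACCGGTT in 0, against 7.6% and 0.1%. None of these motifs overlaps another in its letters. By the GENCODE positions given above, the windows with a match in *Krt7* and *Cldn7* lie inside the gene. The match in *Krt8* falls past the 110 bases of its window that lie upstream of the annotated gene. A match describes the letters only.

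Shown are the upstream bases of *Krt18* and *Cldn4*, the pair whose levels were most alike, and of *Epcam*, each 5′ to 3′ in the direction of transcription and ending before the first annotated exon, with the E-box and the GC box (on either strand) in capitals. *Krt18* is read from chr15:102027966-102028179 (plus strand), *Cldn4* from chr5:134946935-134947184 (minus strand) and *Epcam* from chr17:87635729-87635978 (plus strand), all in GRCm38.p6.
Krt18: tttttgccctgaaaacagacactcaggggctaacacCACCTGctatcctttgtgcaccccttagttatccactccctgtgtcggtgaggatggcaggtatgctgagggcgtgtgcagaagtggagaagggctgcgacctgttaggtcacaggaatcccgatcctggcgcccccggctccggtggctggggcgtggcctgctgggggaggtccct
Cldn4: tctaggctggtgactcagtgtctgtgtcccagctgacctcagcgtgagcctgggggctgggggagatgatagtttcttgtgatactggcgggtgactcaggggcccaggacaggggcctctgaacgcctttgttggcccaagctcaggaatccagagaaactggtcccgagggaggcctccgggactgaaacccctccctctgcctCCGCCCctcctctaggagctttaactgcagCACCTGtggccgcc
Epcam: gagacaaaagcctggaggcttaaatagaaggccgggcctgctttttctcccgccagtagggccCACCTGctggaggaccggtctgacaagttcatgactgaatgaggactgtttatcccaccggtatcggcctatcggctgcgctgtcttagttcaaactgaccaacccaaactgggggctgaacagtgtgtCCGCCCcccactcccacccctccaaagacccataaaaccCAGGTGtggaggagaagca

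In *Cldn4* the E-box began 14 bases and in *Epcam* 19 and 187 bases upstream of the RefSeq start. In *Krt18* it began 214 and in *Krt8* 111 bases upstream, so that the keratin pair held it farther from the start than *Cldn4* did, and *Krt7* held it 44 bases upstream.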

How the data were processed

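RNA was sequenced in 75-base single-end reads from stranded total RNA libraries. According to the study's methods the authors ran RSEM, with Bowtie2 as its aligner, against GRCm38. The deposited values are expected counts for each Ensembl gene in 18 libraries, without normalization. The submitters' processing notes name mm9, so GRCm38 rests on the methods. Deposited values were whole numbers. Symbols, positions and exon lengths came from GENCODE mouse release M21, which held 37607 of 38924 identifiers.

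Groups came from the sample titles. Expected counts were used as deposited in edgeR 4.0.16 (R 4.3.3; filterByExpr by group, TMM, estimateDisp, glmQLFit, glmQLFTest). The design held the 18 libraries and gave each group its own mean. Adjusted p are Benjamini-Hochberg values across 16577 genes. CPM are counts divided by the library total, times 1000000. Folds against a group at 0 used a floor of 3 counts over the group, and ratios against 1 to 3 counts carry exact 95% binomial intervals. Without molecular identifiers, intervals and floors cover counting error only. The test was checked on simulated data with known changes. The study calls the libraries of a condition biological replicates, and p-values measure the spread between them.

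The members and gene lists were chosen with earlier results of these data known. All members are named; of each other list, counts called, up to 3 genes with the highest mean CPM and genes at 0 in a whole group. Genes like the members were the 8 with the highest correlation. An item of that list and a motif searched are not reported here. Alternatives were DESeq2 1.42.0, other scalings, filters and thresholds, a replicate block, fits to the compared groups alone and leaving out each library. *Muc16* of the mesothelial list did not match. Python 3.11.15 with pandas 2.3.3, scipy 1.17.1 and matplotlib 3.10.9 made the summaries and figures.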

Additional observations from a re-analysis of the deposited data

Results flagged for a closer look

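In 5 cases the response to transplantation differed between organs by edgeR's test of the difference itself. *Cdh1* responded less in kidney than in tail cells (log2 difference -6.28 ± 1.68 SE, edgeR adjusted p = 0.0252) and less than in heart cells (-5.38 ± 1.42, edgeR adjusted p = 0.0113). The tail value depends on the prior count, since TFc had 1 count over the group. After transplantation *Cdh1* in KFs did not pass the test against TFs (0.80 ± 0.79, edgeR adjusted p = 0.489) or HFs (-0.02 ± 0.78, edgeR adjusted p = 0.991). *Cdh16* responded less in kidney than in heart cells (-10.42 ± 2.67, edgeR adjusted p = 0.0142), a fitted value that depends on the prior count since HFc was at 0. From there *Cdh16* could only rise, while KFc held 1484 counts over the group. After transplantation *Cdh16* in KFs did not pass the test against HFs (1.37 ± 0.93, edgeR adjusted p = 0.293), nor without KFs replicate 3 (-0.62 ± 0.71, edgeR adjusted p = 0.525). *Krt19* rose in kidney cells and fell in the others, and its responses differed from that of the tail cells by 2.67 ± 0.62 (edgeR adjusted p = 0.0119) and from that of the heart cells by 3.33 ± 0.66 (edgeR adjusted p = 0.00176). Without KFs replicate 3 all 5 kept their sign and passed the test, at -7.64, -6.78, -12.43, 2.87 and 3.49 in the same order.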

How the results depend on the processing

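The number of members called, among those that passed the filter in each fit (8 with all libraries), depended on the setting as follows. The share of all genes called also moves with the setting, from 27.7% to 29.0% in HFs against HFc without KFs replicate 3, for example. The counts in this section are given without that share and show only how the calls depend on the processing. With DESeq2 it was 8 in HFs against HFc (5 with edgeR), 2 in KFs against KFc (1) and 1 in HFs against TFs (0), where library size alone also gave 1. With no filter, or a filter of a mean of 10 counts, KFs against KFc had 0, since *Krt19* was lost. At an adjusted p under 0.01 there were 0 in KFs against KFc, 2 in TFs against TFc (5), 2 in KFs against TFs (5), 2 in KFs against HFs (4), 0 in the kidney against the tail response (2) and 1 in the kidney against the heart response (3). With only the groups compared there were 1 in HFc against TFc (0), 1 in KFs against TFs and 1 in KFs against HFs.

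Leaving out 1 library gave 4 to 8 in HFs against HFc, 0 to 5 in KFs against KFc, 3 to 7 in TFs against TFc, 0 to 0 in HFc against TFc, 6 to 7 in KFc against TFc, 6 to 8 in KFc against HFc, 0 to 1 in HFs against TFs, 2 to 8 in KFs against TFs (the 8 without KFs replicate 2, *Esrp1* among them), 1 to 5 in KFs against HFs, 0 to 0 in the heart against the tail response, 1 to 8 in the kidney against the tail response and 3 to 8 in the kidney against the heart response. Some log2 fold changes changed sign on leaving out 1 library. In KFs against KFc the ranges were -0.49 to 1.23 for *Cdh1*, -0.62 to 2.96 for *Epcam*, -1.57 to 0.88 for *Cdh16*, -1.89 to 1.84 for *Krt8*, -2.42 to 1.71 for *Krt18* and -3.02 to 1.36 for *Cldn4*, with the lowest value and the only negative one without KFs replicate 3. For *Krt7* the range was -1.42 (without KFs replicate 3) to 0.20 (without KFs replicate 2). In HFs against TFs the ranges were -0.24 to 1.28 for *Epcam* and -0.83 to 1.09 for *Cldn4*, lowest without HFs replicate 3. In KFs against TFs they were -0.52 to 1.39 for *Cdh1* and -0.13 to 1.49 for *Krt7*, and in KFs against HFs -0.57 to 3.44 for *Epcam*, -0.62 to 2.08 for *Cdh16* and -0.45 to 1.17 for *Krt7*, each lowest without KFs replicate 3. *Cdh1* in KFs against HFs, at -0.02 with all libraries, ranged from -1.36 to 0.55 and was 0.27 with library size alone. The cause was not tested.

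Replicate numbers did not pair the libraries (correlation of same-numbered deviations -0.139 to 0.079). With the replicate number as a block, 3 genes were called in KFs against TFs (5), and in KFs against KFc *Cdh16* turned to -0.02, *Krt18* to -0.18 and *Cldn4* to -0.72. Of 70 log2 fold changes, 61 kept direction and call under the block. Scaling by library size alone moved the median of all genes by -0.156 in HFc against TFc, -0.22 in HFs against TFs, 0.205 in KFs against HFs and 0.112 in the kidney against the heart response. *Cldn7*, *Esrp1*, *Cldn4* and *Krt18* had at most 11 counts in any transplanted heart or tail library, which limits the precision of their values.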
